A study of Chlamydomonas reinhardtii with 8 samples.

Results

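The transcript models described here are those of *C. reinhardtii* for which 2 different array probes both gave at least 2-fold more signal with Cy5-labeled than with Cy3-labeled RNA. They were chosen by measured values. Probes 1 and 2 of a model each had to reach a mean log2 ratio of Cy5 over Cy3 of at least 1 over the arrays rep3, rep4, rep5 and rep6. Each of these probes also had to be marked by the scanner software as well above background in both channels on all 4 arrays. A log2 ratio of 1 is a 2-fold difference. Of 14557 models on the array, each with 3 probes, 3280 met the signal condition and 143 were members. This is 4.36% of the models that met the signal condition, and the same values chose the members, so that the share is a description and not a test. A further 6 models were left out beforehand, of which 0 would have qualified. The gene lists used below, that for sulfur included, were also drawn up without these 6.

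*C. reinhardtii* is a unicellular green alga that is used to study photosynthesis and nutrient limitation. When sulfate runs out, cells of this alga are known to raise sulfate transporters, arylsulfatases and the enzymes of sulfate assimilation, to lower photosynthesis and to stop dividing. Metabolism of sulfur amino acids and storage of carbon as starch and lipid also shift. Transcripts of many genes of unknown function change as well.

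RNA was hybridized on 8 arrays with 2 colors each. Arrays rep1 to rep6 carried RNA of the wild type cc3491, with the sample of 0 h (T0) in Cy3 and a sample from sulfur starvation in Cy5. All 6 are titled as 24 h, but the sample labels give the Cy5 samples as 24 h (rep1, rep5), 48 h (rep2, rep6), 72 h (rep3) and 96 h (rep4). The arrays label1 and label2 carried RNA of the wild type cc125, described for both channels as 24 h of sulfur starvation. T0 samples came from early stationary cultures. Cells were grown in TAP medium, which contains acetate, with or without sulfur. The study counts biological and technical replicates among the 6 arrays without saying which array is which, so that spread between arrays may be technical. The dyes were not swapped, and dye and starvation cannot be told apart on rep1 to rep6.

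Signal differed widely between arrays. On rep1 and rep2, 2180 and 2462 probes were well above background in at least 1 channel, against 16825 to 24465 on rep3 to rep6 and 40514 and 43062 on label1 and label2. Log2 ratios of the 6560 probes 1 and 2 that met the signal condition correlated with r = 0.99 between rep3 and rep4, which lie on slide 1, and with r = 0.92 between rep5 and rep6 on slide 2. Between the slides r ranged from 0.87 to 0.89. Probes of 1 array are not replicates, so these r are given as a description.

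The genes by which sulfur starvation is usually recognized showed no 2-fold rise on rep3 to rep6 where they were measured. Several were far higher in Cy5 on label2, though not with every probe. *ATS2*, an ATP sulfurylase that starts sulfate assimilation, was measured by probe 1 on all 4 arrays at log2 ratios from -0.56 to -0.15. On label2 its probes 1, 2 and 3 gave 4.40, 3.86 and 0.93. *SUOX1*, a sulfite oxidase, was measured by probe 1 on all 4 arrays at 0.19 to 0.24. On label2 this probe gave 2.34, but probes 2 and 3 gave 0.26 and 0.32. *SIR1*, a sulfite reductase, was measured by probe 3 on all 4 arrays at 0.19 to 0.68. On label2 this probe gave 3.80, and probes 1 and 2 gave 3.50 and 3.34. The arylsulfatases *ARS1* and *ARS2* and the extracellular polypeptide *ECP88* gave no direction there, since none of their probes was well above background on all 4 arrays. On label2 their probes 1 gave 3.92, 4.21 and 4.78. Their other probes ranged there from 0.21 (*ARS2* probe 3) to 5.29 (*ARS1* probe 3). Of 12 listed models for sulfur acquisition and assimilation, 7 met the signal condition, with a median lower probe mean of 0.34. Of these, 0 were members, beside 4.36% of all models that met the condition. On label2, where both channels are described as the same RNA, the log2 ratios had an SD of 0.974, against 0.306 on label1. The Cy5 sample of rep3 to rep6 is therefore called the sample labeled as starved throughout, and no direction on label2 is read as a response to sulfur.

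The 2 probes that define a member were not always separate measurements. Sequences of probes 1 and 2 were at hand for 1507 models, 19 of them members, in the study's probe table. In 10 of the 19 members both probes shared an unbroken run of at least 20 bases, and in 9 they did not. Over the 1507 models, 62 pairs were identical and 617 shared such a run, together 45.1%. The following probes are those of members described below by name or rank. They are shown because their overlap decides how much the second probe adds. Capitals mark the run that probes 1 and 2 of a model share, and all are written as in the probe table.

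195337 probe 1: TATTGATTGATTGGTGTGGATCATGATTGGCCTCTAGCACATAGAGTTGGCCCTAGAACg
195337 probe 2: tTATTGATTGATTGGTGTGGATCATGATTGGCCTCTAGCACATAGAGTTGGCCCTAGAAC
195337 probe 3: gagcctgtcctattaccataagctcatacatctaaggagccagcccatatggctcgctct
*CYCB1.a* 195433 and *CYCB1.b* 195434 probe 1: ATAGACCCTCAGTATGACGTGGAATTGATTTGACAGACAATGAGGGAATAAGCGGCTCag
*CYCB1.a* 195433 and *CYCB1.b* 195434 probe 2: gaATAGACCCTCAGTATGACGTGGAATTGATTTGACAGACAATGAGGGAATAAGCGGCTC
*CYCB1.a* 195433 and *CYCB1.b* 195434 probe 3: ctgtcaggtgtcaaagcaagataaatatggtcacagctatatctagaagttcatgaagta
*FKB16-2.a* 195500 and *FKB16-2.c* 195502 probe 1: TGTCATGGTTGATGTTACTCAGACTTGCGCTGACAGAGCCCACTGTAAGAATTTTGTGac
*FKB16-2.a* 195500 and *FKB16-2.c* 195502 probe 2: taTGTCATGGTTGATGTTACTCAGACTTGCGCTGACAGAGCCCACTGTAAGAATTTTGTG
*FKB16-2.a* 195500 probe 3: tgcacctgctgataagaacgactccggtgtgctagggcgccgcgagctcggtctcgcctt
*FKB16-2.c* 195502 probe 3: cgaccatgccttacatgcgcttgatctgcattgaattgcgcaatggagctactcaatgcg
151947 probe 1: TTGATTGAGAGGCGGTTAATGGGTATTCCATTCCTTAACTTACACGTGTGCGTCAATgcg
151947 probe 2: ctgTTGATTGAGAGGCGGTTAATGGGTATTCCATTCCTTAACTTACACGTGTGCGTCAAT
151947 probe 3: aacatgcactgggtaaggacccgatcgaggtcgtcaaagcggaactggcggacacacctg
*FEA1* 129929 probe 1: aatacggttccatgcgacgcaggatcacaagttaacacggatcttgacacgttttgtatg
*FEA1* 129929 probe 2: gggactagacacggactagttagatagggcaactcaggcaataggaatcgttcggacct
*FEA1* 129929 probe 3: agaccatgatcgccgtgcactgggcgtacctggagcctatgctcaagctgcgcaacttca

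The shared run was 59 bases in 195337, 58 bases in the cyclin and the FKB16-2 models, and 57 bases in 151947, so that probe 2 is probe 1 shifted along the same stretch. The models 195433 and 195434 carry the same sequence in all 3 probes. The models 195500 and 195502 carry the same probes 1 and 2 and differ in probe 3. Each of these pairs is thus a repeated measurement of 1 target. In *FEA1* the longest run common to probes 1 and 2 was 7 bases. The mean log2 ratios of probes 1 and 2 differed by a median of 0.09 (highest 0.18) in the 10 members with overlapping probes and by a median of 0.10 (highest 0.29) in the 9 members with separate probes.

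**Figure D1:**
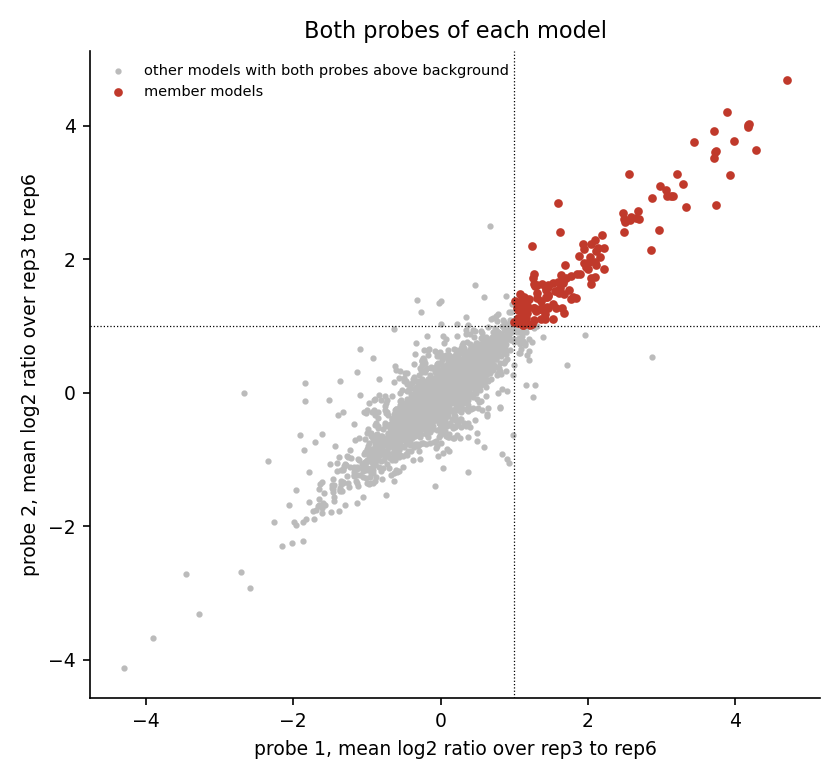
Mean log2 ratio of Cy5 over Cy3 over rep3 to rep6 for probe 1 (horizontal axis) and probe 2 (vertical axis) of the 3280 models that met the signal condition. Red points are the 143 members, grey points the other models, and the dotted lines mark a log2 ratio of 1, which defines the members.

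Over all 143 members the lower of both probe means had a median of 1.53 and ranged from 1.00 to 4.68. It was at least 3 in 16 members, at least 2 in 43 and below 1.5 in 69. The same quantity had a median of -0.08 over the 3280 models. With normexp background correction, 73 models met the rule, 72 of them among the 143. In 103 members all 8 values, from 2 probes on 4 arrays, were at least 1, and in 142 members all 8 were above 0. The exception was 206219, annotated as a predicted protein, whose probe 1 was at -0.77 on rep3 and from 1.76 to 2.21 on the other 3 arrays. The SD of a member probe over the 4 arrays had a median of 0.16 (lowest 0.02, highest 1.37). Probes 1 and 2 differed in their means by less than 0.5 in 132 members and by more than 1 in 1 member.

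Next to the threshold, 149209 had a lower probe mean of 1.00 and 186936 and 205651 had 1.01. Just outside it, 205494 had 0.997, 78954 had 0.992 and 196660 had 0.984. Members and non-members on either side of the threshold thus differed by less than the median SD over arrays.

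Most members bear no name. Of the 143, 129 matched an older locus name in NCBI's annotation of assembly v5.5. The study's tables named or described 34 of them, and for 13 of these only the table on sulfur starvation did so. In that table the identifier of the model and the identifier given as its name differed in 79 of 263 entries where both could be read, so that names from it are less certain. These 13 are the 3 cyclins, *FEA1*, *FMG1-A*, both *FKB16-2* models, *UOX*, *PMA2*, *DPR1*, *ASSD1*, *CAM2.a* and 185006. The named members are described below with the 12 highest members. Members outside the naming rule were added after their values were seen.

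The highest member was 195337 (locus CHLRE_08g365100v5), for which the tables at hand give no name. Its probe 1 gave log2 ratios of 5.06 on rep3, 4.68 on rep4, 4.61 on rep5 and 4.45 on rep6. Its probe 2 gave 5.0, 4.56, 4.61 and 4.56. The mean of probe 1 was 4.70 ± 0.26 (SD, n = 4 arrays), a 26.0-fold difference between a mean intensity of 1010 in the T0 channel and 26272 in the other. Both probes, which share 59 bases, lay close together on every array. Probe 3, which shares no run above 4 bases with them, had a mean of 2.85 but was well above background in both channels on 0 of the 4 arrays. On label1 both probes were near 0, at -0.10 and 0.08, and on label2 they were at 0.67 and 0.65.

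The next 3 members were models of B-type cyclins, which bind cyclin-dependent kinases and drive cells into mitosis. Probe 1 of *CYCB1.b* (195434) gave 4.41, 4.13, 4.07 and 4.13 on rep3 to rep6. Probe 1 of *CYCB1.a* (195433) gave 4.31, 4.11, 3.98 and 4.34 from the identical sequence. The third model, 206120, also listed as *CYCB1.a*, gave 4.45, 4.12, 3.80 and 4.32. Means of probe 1 were 4.19 ± 0.15, 4.18 ± 0.17 and 4.17 ± 0.28 (SD, n = 4 arrays), 18.2, 18.2 and 18.0-fold. The 3 models could not be told apart on any of the 4 arrays beyond their spread. Their probes 3 were at 0.52, 0.56 and 0.30 and well above background on 0 of the 4 arrays. On label2 their probes 1 were at -0.18, -0.38 and -0.19 and on label1 at -0.13, 0.08 and -0.16. The T0 signal of these probes was low, with mean intensities of 89.5, 88.4 and 84.0, against 1629, 1605 and 1515 in the other channel. With normexp background correction, which adds an offset of 50 to each channel, the mean of probes 1 and 2 of *CYCB1.b* was 2.21 in place of 4.10. The order changed with it, as *CYCB1.b* fell to rank 12 among the members and the other 2 cyclin models to ranks 15 and 16, below 190200 at 3.28, 143541 at 3.19, 182570 at 2.97 and 189618 at 2.69.

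The remaining 8 of the 12 highest members carry no name in the tables. 190948 gave 3.85, 4.20, 3.77 and 3.74 with probe 1 and 4.71, 4.41, 3.69 and 4.01 with probe 2, but its probe 3 had a mean of -0.48 and was well above background on 3 arrays. 189618 was the most even of them with probe 1, at 4.08, 3.93, 3.97 and 3.97. 205639 gave 3.84, 4.03, 3.56 and 3.45, while its probe 3 was at -0.02. Probe 3 of 205639 was well above background on 1 array only and gives no measure of this model.

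In 192924, probe 1 gave 4.95 on rep3 and 4.07, 4.21 and 3.93 on rep4 to rep6, and probe 2 gave 4.04, 3.69, 3.35 and 3.45. 182570, 190200 and 143541 were raised with all 3 probes, the third well above background on all 4 arrays. Their probe 3 means were 3.64 ± 0.19, 3.85 ± 0.03 and 3.68 ± 0.16 (SD, n = 4 arrays), beside probe 1 means of 3.74, 3.73 and 3.72. These were also the 3 highest values of probe 3 among the members with a measured probe 3. T0 signal was also low in 190948, 205639 and 192924, with mean intensities of 82.3, 66.6 and 52.8 for probe 1. With normexp background correction the mean of their probes 1 and 2 was 1.79 in place of 4.05, 1.63 in place of 3.82 and 1.99 in place of 3.96. 194308, with a T0 intensity of 118, gave 1.88 in place of 3.59. As reported, 194308 gave 3.88, 3.37, 3.28 and 3.21 with probe 1 and a probe 3 mean of 0.50, with probe 3 above background on 0 arrays.

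**Figure D2:**
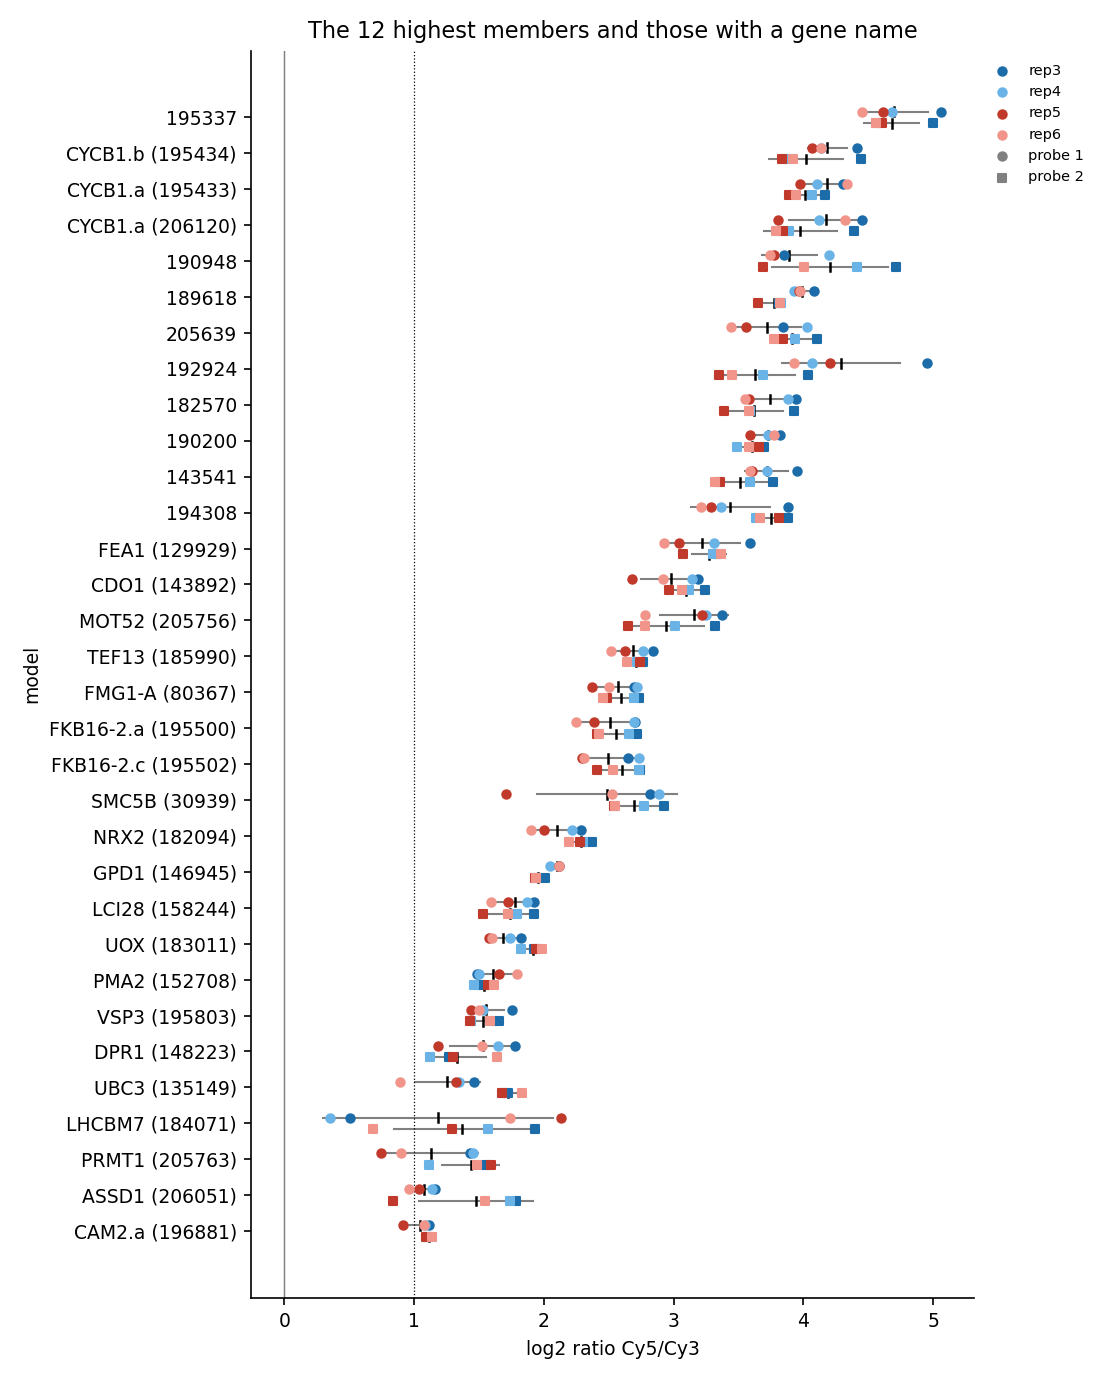
Log2 ratios of Cy5 over Cy3 (horizontal axis) of the 12 highest members and of all members with a gene name, with a circle for probe 1 and a square for probe 2 on each of rep3 to rep6. Black ticks are means and grey bars are ± 1 SD over the 4 arrays. The dotted line marks the threshold of 1, below which single values of *LHCBM7*, *UBC3*, *PRMT1*, *ASSD1* and *CAM2.a* fall.

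Among the members with roles in nutrient metabolism, *FEA1* was highest. It encodes a secreted protein of iron assimilation in this alga. Probe 1 gave 3.59, 3.31, 3.04 and 2.93 on rep3 to rep6 and probe 2 gave 3.34, 3.30, 3.08 and 3.37. The means, 3.22 ± 0.30 and 3.27 ± 0.13 (SD, n = 4 arrays), came from probes without a common run and correspond to 9.31-fold and 9.66-fold. Its probe 3 was at 1.85 ± 1.02 and not well above background.

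*CDO1*, a cysteine dioxygenase that oxidizes cysteine to its sulfinic acid, gave 3.19, 3.14, 2.68 and 2.92 with probe 1 and 3.24, 3.12, 2.97 and 3.06 with probe 2. It was the only member among 9 listed models of methionine, cysteine and glutathione metabolism, of which 7 met the signal condition. The median of the lower probe mean over these 7 was 0.58. *UOX*, a urate oxidase of purine breakdown, gave 1.83, 1.74, 1.58 and 1.60 with probe 1 and had a mean of 1.74 with probe 3. It was 1 of 6 measured models of nitrogen metabolism.

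In central carbon and lipid metabolism, *GPD1*, a glycerol-3-phosphate dehydrogenase that makes the glycerol backbone of lipids, was the most even member with a name. Its probe 1 gave 2.11, 2.04, 2.12 and 2.12, and its probe 3 had a mean of 1.74. *ASSD1*, an aspartate semialdehyde dehydrogenase of amino acid synthesis that the word search placed on the carbon list, gave 1.16, 1.14, 1.03 and 0.96 with probe 1. Its probe 2 gave 1.79, 1.74, 0.84 and 1.55. These were 2 of 17 measured models on the starch and central carbon list. On the lipid list 2 of 6 were members, *GPD1* and 185219, a model with a C2 domain that binds calcium and lipids, which gave 2.18, 2.09, 1.96 and 2.21 with probe 1.

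Among further enzymes, *LCI28*, described as an aldose reductase induced by low CO2 and placed on the transporter list by its symbol pattern, gave 1.92, 1.87, 1.72 and 1.59 with probe 1. *DPR1*, a dihydrodipicolinate reductase of lysine synthesis, gave 1.78, 1.65, 1.18 and 1.53. *NRX2*, a nucleoredoxin, a thioredoxin-like protein, gave 2.28, 2.21, 2.0 and 1.90, and its probe 3 had a mean of 1.23.

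*FKB16-2.a* and *FKB16-2.c* encode peptidyl-prolyl isomerases, enzymes that assist protein folding. They were the 2 members among 7 measured models of chaperones and protein folding, but share their probes and count as 1 measurement. *FKB16-2.a* gave 2.70, 2.69, 2.39 and 2.24 with probe 1, and *FKB16-2.c* gave 2.65, 2.73, 2.29 and 2.31. The probes 3, which differ, had means of 1.83 and 0.55 and were not above background. *UBC3*, a ubiquitin-conjugating enzyme, gave 1.46, 1.35, 1.32 and 0.89 with probe 1 and 1.72, 1.67, 1.68 and 1.83 with probe 2. It was 1 of 8 measured models of protein degradation.

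Of proteins at the cell surface, *FMG1-A*, described as a minor membrane glycoprotein of the flagella, gave 2.69, 2.72, 2.37 and 2.51. It was 1 of 18 measured flagellar models, whose lower probe mean had a median of -0.65. *VSP3*, an extracellular matrix protein, gave 1.75, 1.53, 1.44 and 1.50, and 195937, a hydroxyproline-rich glycoprotein, gave 1.95, 1.76, 1.78 and 1.33. These were 2 of 10 measured models of cell wall and extracellular matrix. *PMA2*, a proton ATPase of the plasma membrane, gave 1.49, 1.50, 1.66 and 1.79.

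Members with a name in the nucleus or in signalling were few. *SMC5B*, a subunit of a complex that maintains chromosome structure and repairs DNA, gave 2.82, 2.89, 1.71 and 2.53 with probe 1 and 2.93, 2.77, 2.54 and 2.55 with probe 2. *PRMT1*, an arginine methyltransferase, gave 1.43, 1.45, 0.75 and 0.90, and *CAM2.a*, a calmodulin-like protein, gave 1.12, 1.09, 0.92 and 1.08. *CAM2.a* was 1 of 17 measured models on the signalling list, as was *LCI28* on the transporter list. *MOT52* and *TEF13*, both given as predicted proteins, gave 3.37, 3.25, 3.22 and 2.78, and 2.84, 2.76, 2.62 and 2.52 with probe 1. The 61 measured models on the chromatin and histone list included 0 members, beside 4.36% of all models that met the signal condition.

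*LHCBM7*, a chlorophyll-binding protein of the light-harvesting complex II, was the only member among 17 measured models of light harvesting. Probe 1 gave 0.50 and 0.36 on rep3 and rep4 but 2.13 and 1.74 on rep5 and rep6. Probe 2 gave 1.93 and 1.57 but 1.29 and 0.68. Probe 1 was saturated in Cy5 on rep3 and rep4, so that its values there are uncertain. Saturation in Cy3 was not checked. The 20 measured models of photosystems and electron transport, 6 of redox and oxidative stress, 6 of phosphorus starvation and 2 of ribosomes included 0 members. Over all models that met the signal condition the share of members was 4.36%. A count of 0 in lists this small is therefore not read as a lack of members with these functions. Of the 23 members with a gene symbol, 16 still met the rule with normexp background correction. *GPD1*, *DPR1*, *UBC3*, *LHCBM7*, *PRMT1*, *ASSD1* and *CAM2.a* did not, nor did 195937. The starch and carbon, light harvesting, protein degradation and signalling lists then held 0 members and the lipid and cell wall lists 1 each. Normexp also lowered *FEA1* to 1.82 in place of 3.24, *CDO1* to 1.60 in place of 3.04 and *MOT52* to 1.48 in place of 3.05. *NRX2*, *SMC5B* and *PRMT1* matched none of the word patterns and are on no list. All lists cover only the models that the study's tables name. The study chose many of those for changes in its own samples, so the shares are not independent evidence.

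Probe 3 is the third probe of each model, read on the same arrays. Per the study's methods, 1 probe per model was based on an earlier array of this alga. Its number is not given, but the study's probe table tags the origin of each probe. Among the 19 members with sequences, probe 1 is always tagged MOST_tdt. Probe 2 is tagged MOST_tdt_temp or, as in *FEA1*, bears a tag beginning with freiburg. The probes 2 with the freiburg tag have 50 to 59 bases and share no long run with probe 1. Probe 3 bears other tags. No tag names the earlier array, so which probe came from it was not settled. The study left data from probes of the earlier array out of its own analysis. Probe 3 was well above background in both channels on all 4 arrays in 60 of the 143 members. In 46 of these 60 its mean was at least 1. Over the 1616 models with all 3 probes measured, 4.89% had such a probe 3. The members' probe 3 had a median of 1.36 over these 60, against -0.03 over the 1616 models. Among the 19 members with sequences, probe 3 repeats probe 2 in 152270 (identical, 60 bases) and shares 51 bases with it in 160028, and without them the count was 44 of 58. Since probe 3 was read on the arrays that chose the members, this is a description. In 3 members it was below 0, namely 119920 at -0.67, 149408 at -0.48 and 162029 at -0.19.

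The largest differences between probes 1 and 2 were seen in 191657, 152185 and 194395. 191657 had means of 1.60 and 2.84, 152185 had 1.25 and 2.19, and 194395 had 3.74 and 2.81. In each of these the ranges of both probes over the 4 arrays did not overlap. The third probe of 194395 was measured on all 4 arrays and had a mean of 3.13.

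In the locus order of the v5.5 annotation 3 pairs of members were direct neighbours, which took in 6 of 129 member loci. The share to be found in other sets of the 2806 loci of models that met the signal condition was not computed. No grouping of members is therefore read from these pairs. On chromosome 14 these were 129088 (CHLRE_14g617400v5) and 190200 (CHLRE_14g617450v5), with probe 1 means of 3.13 and 3.73. Both were also among the highest members on label2. On chromosome 10 *SMC5B* lay next to 182898, which had a probe 1 mean of 1.08. On chromosome 11 185219 lay next to 193339.

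The arrays rep3 and rep4 on slide 1 were compared with rep5 and rep6 on slide 2, since the difference between slides was not used to choose the members. Slide and labelled starvation time (72 h and 96 h against 24 h and 48 h) cannot be told apart. By limma's test on loess-normalized ratios with Benjamini-Hochberg adjustment, 0 of 143 members were called with both probes. The background was 0.0% of 4594 models, and 0 of 16454 probes were called. At an unadjusted p under 0.05, 73 of the 286 member probes (25.5%) and 4100 of all probes (24.9%) differed. The smallest adjusted p was 0.067, among members and among all probes. With 2 arrays against 2, 52 of 100 simulated probes with a log2 difference of 2 were recovered and 0 of 100 with a difference of 1. The simulation changed only these probes, while 24.9% of the real probes passed the unadjusted limit. It therefore sets no limit of detection for these data. With normexp background correction 66 members were called, 65 of them higher on slide 1, and 4.75% of 4594 models.

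Both probes were higher on slide 1 in 99 members and higher on slide 2 in 9, which is a description. The same count was not made over all models tested, so no excess among the members is read from it. The median difference, slide 1 minus slide 2, was 0.16 over member probes and 0.08 over all probes tested. By their fitted differences, the members farthest to slide 2 were 143968 and 195162. 143968 gave 0.86 and 0.76 on rep3 and rep4 and 1.89 and 1.90 on rep5 and rep6 with probe 1, and 0.80, 0.67, 1.75 and 1.81 with probe 2. Its difference was -1.06 ± 0.07 (SE) with probe 1 and -1.03 ± 0.08 with probe 2, limma adjusted p = 0.067 for both. The values of both slides did not overlap. Both probes were called when the test was restricted to probes measured in both channels (2.47% of 3280 models called), with median centring in place of loess or with no loess, and without rep5 or without rep6.

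195162 gave 0.81, 0.62, 2.20 and 2.10 with probe 1 and 1.02, 0.76, 1.93 and 2.05 with probe 2. Both probes were saturated in Cy5 on rep3 and rep4, so that their ratios there are uncertain and no difference between slides can be given. 119920 gave 0.82, 0.63, 1.24 and 1.47 with probe 1, and 149209 gave 0.91, 0.75, 1.19 and 1.16. The models *PMA2* and 151947 completed the 6 members farthest to slide 2, with smaller probe differences of -0.09 each.

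The 6 members farthest to slide 1 were 151407, 144228, 189583, 192854, 146398 and 192924, and their smaller probe differences ranged from 0.41 to 0.46. 144228 gave 2.91 and 2.55 on slide 1 against 2.23 and 2.30 on slide 2 with probe 1. 146398, a model with a BTB/POZ domain, gave 2.45 and 2.44 against 2.06 and 1.91. In both examples each array of slide 1 was above each array of slide 2 with this probe, and all values stayed above 1.9.

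**Figure D3:**
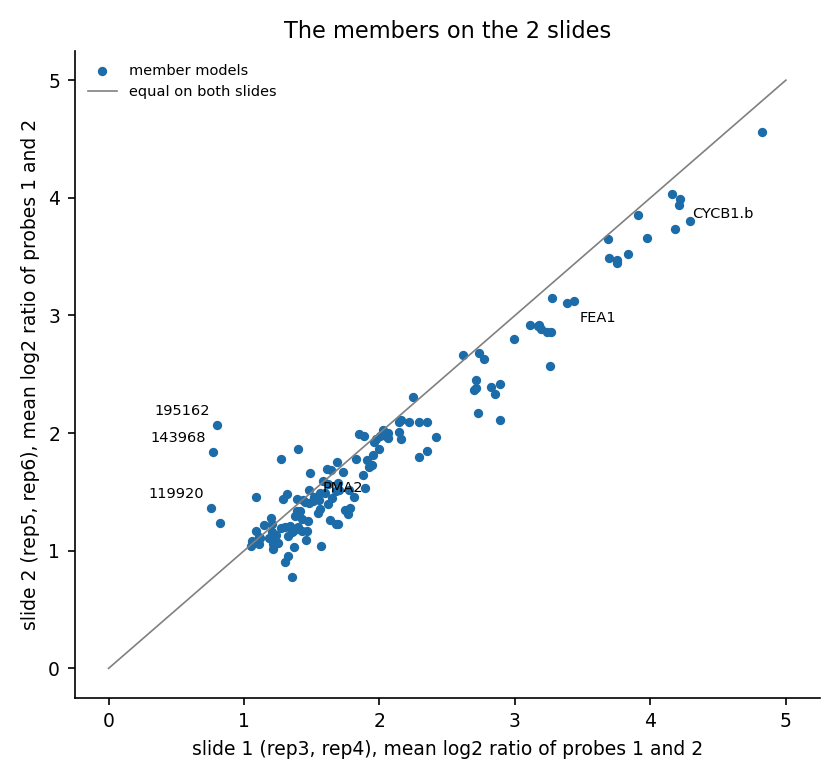
Mean log2 ratio of probes 1 and 2 of each of the 143 members on slide 1 (rep3 and rep4, horizontal axis) against slide 2 (rep5 and rep6, vertical axis). The line marks equal values. Most points lie close to it and slightly below, and 143968, 195162 and 119920 lie above it, 195162 with saturated Cy5 signal on slide 1.

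The arrays rep1 and rep2 gave almost no measurement of the members. Both probes were well above background in both channels in 1 of 143 members, 177665, which gave 0.45 with probe 1 on rep1 and 0.45 with probe 2 on rep2. Its means over rep3 to rep6 were 1.13 and 1.31. Over all 143 members, measured or not, the median was 0.03 on rep1 and 0.00 on rep2.

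On label1, where both channels are described as the same RNA, the members lay near 0. Both probes were measured in 141 members, with a lowest value of -0.81, a median of 0.05 and a highest of 0.65 as the mean of both probes. With both probes at least 2-fold higher in Cy5, 0 of 141 members and 0.0% of 12331 models were found. label1 is 1 array of another strain, and a share of dye in the ratios on rep3 to rep6 was not tested.

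**Figure D4:**
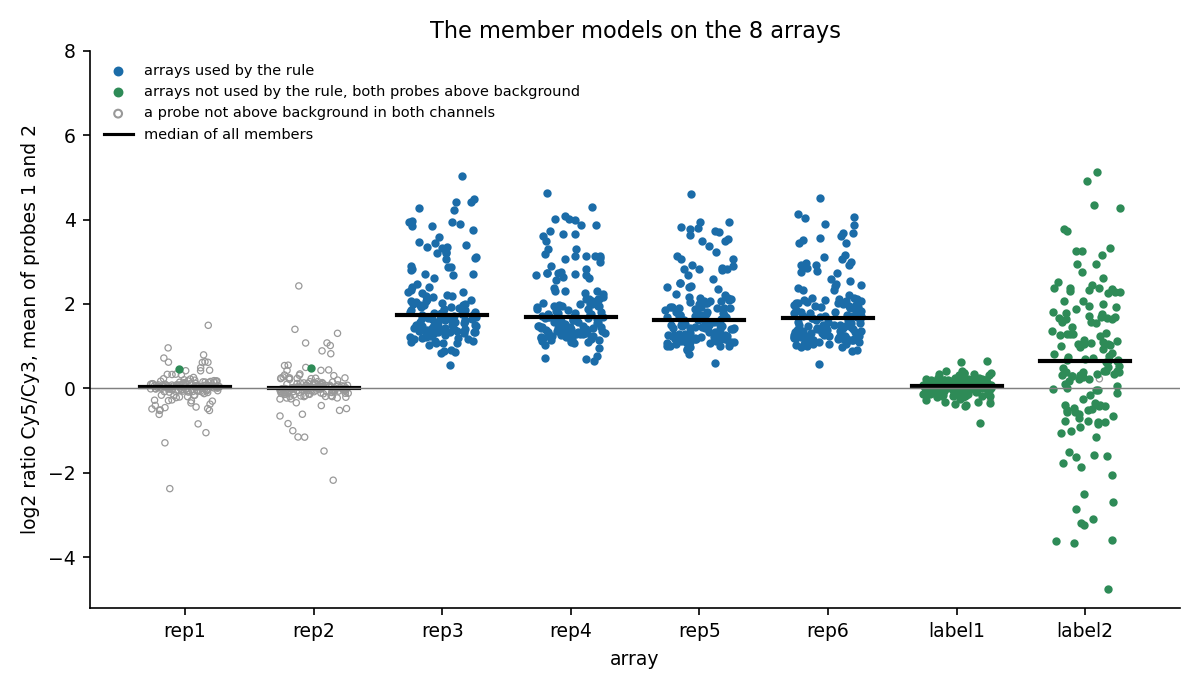
Log2 ratio of Cy5 over Cy3, as the mean of probes 1 and 2, of the 143 members on each of the 8 arrays (1 point per member, black line at the median). Hollow grey points have a probe that was not well above background in both channels. The members lie above 0 on rep3 to rep6, which chose them, around 0 on rep1, rep2 and label1, and on both sides of 0 on label2.

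On label2 the members spread in both directions. Of 142 measured members, 53 (37.3%) were at least 2-fold higher in Cy5 with both probes and 19 (13.4%) were at least 2-fold lower. Among all 13220 measured models these shares were 7.21% and 9.05%. Among the 3278 measured models that had met the signal condition on rep3 to rep6 they were 19.0% and 13.6%. The share of members lower on label2 was thus close to that of the 3278 models, and the share of higher members was above it. These models met the same signal condition but were not matched to the members by intensity. With normexp background correction 32 members were higher in place of 53, a count without a share of the 3278 models beside it. label2 is 1 array, and the difference between the shares was not tested. The mean of both probes ranged from -4.77 to 5.12, with a median of 0.66, against 0.18 over the 3278 models.

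Members highest on label2 were *LCI28*, at 5.14 and 4.68 with probes 1 and 2, 190200 at 5.78 and 4.46, *CDO1* at 4.70 and 3.97, and *UOX* at 3.76 and 3.80. 129088, the neighbour of 190200, was at 5.02 and 3.54, and 205519, *SMC5B* and 151407 were also above 3 with both probes. With both probes, each of these members was higher on label2 than its mean over rep3 to rep6. For *LCI28* and *UOX* the probe 1 means over rep3 to rep6 were 1.78 and 1.69. In all, 8 members were at least 8-fold higher with both probes.

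At least 8-fold lower with both probes were 6 members. These were 184099 at -4.59 and -4.95, *FKB16-2.c* at -3.61 and -3.63, *FMG1-A* at -3.70 and -3.61, *FKB16-2.a* at -3.58 and -3.62, 146308, described as a farnesyl cysteine-carboxyl methyltransferase, at -3.28 and -3.20, and 147934 at -3.36 and -3.01. The same probes were at 1.09 to 2.60 over rep3 to rep6. *FEA1* was higher on label2, at 1.93 and 2.84, and the cyclin models ranged from -0.65 to -0.18. High members on rep3 to rep6 were therefore found on both sides of 0 on label2. Across the 6560 probes of the measured models, label2 correlated with rep3 to rep6 at r from 0.15 to 0.21, as a description over probes that share an array.

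**Figure D5:**
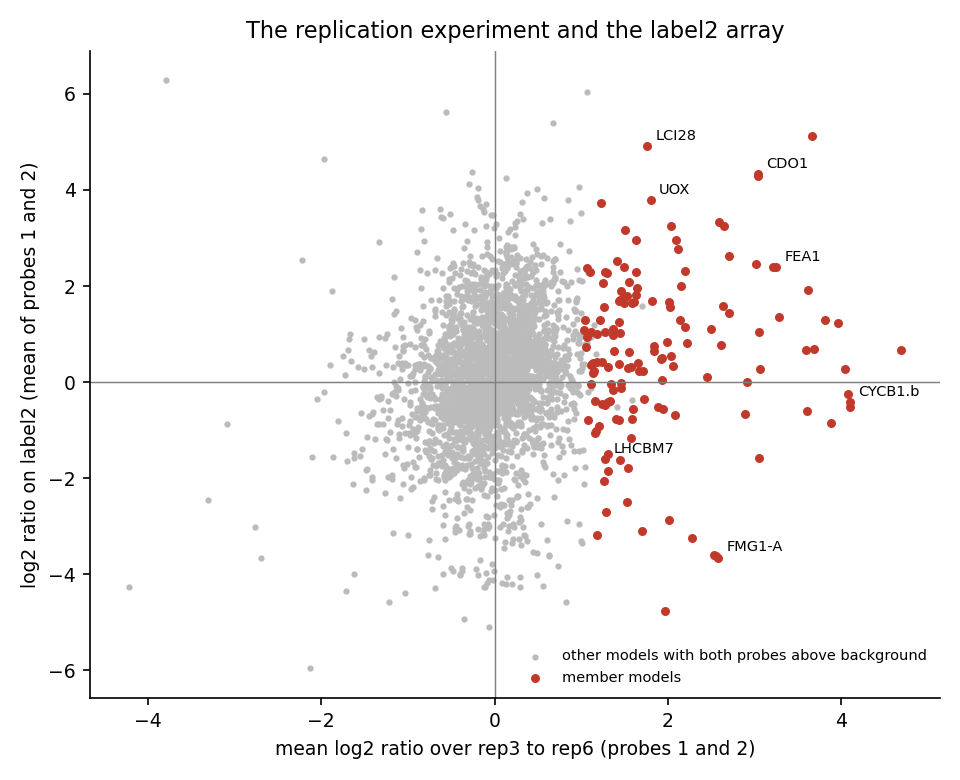
Mean log2 ratio over rep3 to rep6 (horizontal axis) against the log2 ratio on label2 (vertical axis), both as the mean of probes 1 and 2. Red points are the 143 members and grey points the other models that met the signal condition. The members spread from -4.77 to 5.12 on label2, with *LCI28*, *CDO1* and *UOX* at the top and *FMG1-A* near the bottom.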

How the data were processed

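The authors deposited Feature Extraction 10.7.3.1 scanner output of 8 arrays. Its intensity values, per the file headers, were corrected by the software for background and dye. The deposited log10 ratio of Cy5 over Cy3 and the deposited value table hold the same numbers (largest difference 0.0), and the table served as an alternative. The median log10 ratio of a column was 0.0 on 7 arrays and 0.0104 on label2. Log2 ratios were computed from the corrected intensities, with spots of a probe averaged and control spots left out. The number of arrays and their signal over background limit the precision. All columns of values were matched to a sample.

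Members and lists were chosen with earlier results of these data known. Members, probe 3 and single arrays were described with no test. Slides were compared with limma 3.58.1 (R 4.3.3) on ratios after loess within arrays, over probes with 1 or both channels well above background on each of the 4 arrays, two-sided, with Benjamini-Hochberg adjustment at 0.05. The fit was tested on simulated data, with 3 false calls among 16454 probes. Named were the 12 highest members, the 3 models nearest the threshold on each side, the 6 farthest to each slide, the 3 with the most unequal probes and up to 4 of each list. Probe sequences came from the study's probe table, whose part at hand holds 1507 models. In its 2 forms 1998 of 1999 compared entries were equal. Names came from the study's tables. The NCBI v5.5 annotation served only for locus names and order. Alternatives covered normalization, background correction, filters, multiple testing, size of change, marked spots, number of probes and left-out arrays. The plots were made in Python 3.11 with matplotlib 3.10.9.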

Additional observations from a re-analysis of the deposited data

Results flagged for a closer look

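Over the 6 arrays rep1 to rep6, 86 sets of values were searched for an array that stood far from the rest, and chance sets apart about 1 in 20 of such groups. This was found in 1 of them, probe 2 of *UBC3*. There rep1 gave -0.32 while the other 5 arrays gave 1.67 to 1.98, and the gap was 0.866 of the whole range. The member was not measured with both probes on rep1 or rep2.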

How the results depend on the processing

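The number of members was 143 as reported and 103 to 152 with loess, median centring, the deposited value table, marked spots left out, the background condition asked of Cy5 only or every array at 1 or above. It was 73 with normexp background correction, 43 with a mean of at least 2 and 46 with all 3 probes, where fewer models can qualify by construction. Leaving out rep3, rep4, rep5 or rep6 gave 145 to 152, of which 135 to 139 were among the 143. Added after seeing the data, rep3 and rep4 alone gave 200 and rep5 and rep6 alone 144, of which 136 and 127 were among the 143.

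Between slides, 0 members and 0 probes were called by limma. With the software's ratio without loess 1 member and 312 probes were called, with median centring 1 and 326, with normexp background correction 66 and 1805, and over probes measured in both channels 2 and 1238. Leaving out an array gave 0 to 2 members and 0 to 3123 probes, with calls only without rep5 (2 members, 2774 probes) or rep6 (1 member, 3123 probes), which leaves slide 2 with a lone array assumed to vary like the rest. Where 2 members were called, the second was 195162, whose Cy5 signal was saturated on rep3 and rep4. Holm adjustment, a 2-fold minimum and no filter gave 0.

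With normexp background correction 32 members in place of 53 were higher on label2, and 28 in place of 46 had a raised probe 3. Counts on label1 and all other settings for label2 and probe 3 stayed within 1.5 times. Under normexp the median of the member probes was 1.46, 1.47, 0.99 and 0.75 on rep3 to rep6, in place of 1.76, 1.69, 1.63 and 1.64. The cause of the unequal shift was not tested. All 42 named members kept their direction in every setting. This was largely fixed in advance, since the rule asked for raised means on the same arrays. Of the 42, 40 moved by more than 1 SD with normexp and 2 with loess. No paired analysis was possible because each array already holds both RNAs of a pair and the numbered groups are different experiments. Signal on rep1 and rep2 was low, and 1 member was measured there.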
